A study of Oncorhynchus mykiss with 12 samples.

Results

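The enzymes that make heme, the proteins of the red cell membrane and the inducible heme oxygenase were examined in the liver of rainbow trout (Oncorhynchus mykiss) of a control group and a group kept in moderate hypoxia. The members were every RNA-seq row whose symbol was alas1, alas2, urod, fech, hemgn, rhag, slc4a1, sptb or hmox1, with or without a paralog suffix. The rule found 16 loci among 42128 rows, with at least 1 locus for each of the 9 symbols, and left the hemoglobins out. The study holds 12 libraries of total RNA from wild-type trout liver. For RNA-seq there were 3 control libraries and 3 libraries of hypoxia for 1 month at a dissolved oxygen of 4.5 ± 0.1 mg/L, and the small RNA libraries had the same 2 groups of 3. The labels give neither strain nor age and do not say that replicates were separate fish. The p-values therefore set the group difference only against the variation among these libraries, which may be technical variation.

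Heme is built from glycine and succinyl-CoA. The first step, made by 5-aminolevulinate synthase, sets the rate: the alas1 form serves the heme enzymes of liver and other tissues, and the alas2 form serves hemoglobin in red cell precursors. Later enzymes include urod, which trims uroporphyrinogen, and fech, which inserts iron in the last step. In mammals hemgn encodes hemogen, a nuclear protein of red cell precursors, rhag encodes the Rh-associated ammonia and gas channel, slc4a1 encodes the band 3 anion exchanger, and sptb encodes beta-spectrin of the membrane skeleton. Fish red cells keep their nuclei and transcribe genes while they circulate, so blood left in a liver sample carries such RNA. Heme oxygenase opens the heme ring, and biliverdin reductase acts on its product.

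Levels are the deposited FPKM, a measure scaled to transcript length and sequencing depth. At some loci, such as the heme oxygenase locus hmox2b 110487001, the ratio of deposited counts to FPKM varied between libraries by more than depth did. FPKM and fits to the deposited counts can therefore differ at such loci, and the reason was not tested. Changes are log2 fold changes of hypoxia over control from a quasi-likelihood fit in edgeR to those counts, with a standard error (SE). The threshold was an adjusted p of 0.05 over the 19365 genes whose mean reached 0.5 FPKM. Of the 16 loci 12 reached that mean. The lowest tested locus was sptb at a mean of 0.981 FPKM, and the highest untested one was a urod copy at 0.406 FPKM. Across all tested genes 3.39% were called lower and 3.83% higher. Of the 12 tested members 1 was called lower, an alas1 locus, and 0 were called higher by edgeR, while 4 of 12 had an unadjusted p under 0.05, all of them with a negative change, beside 4580 of 19365 over all tested genes in either direction. The median change of the 12 was -0.28, beside -0.0045 for all tested genes. In 2 of the 12 every hypoxia library lay under every control library, which held for 13.1% of all tested genes.

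**Figure D1:**
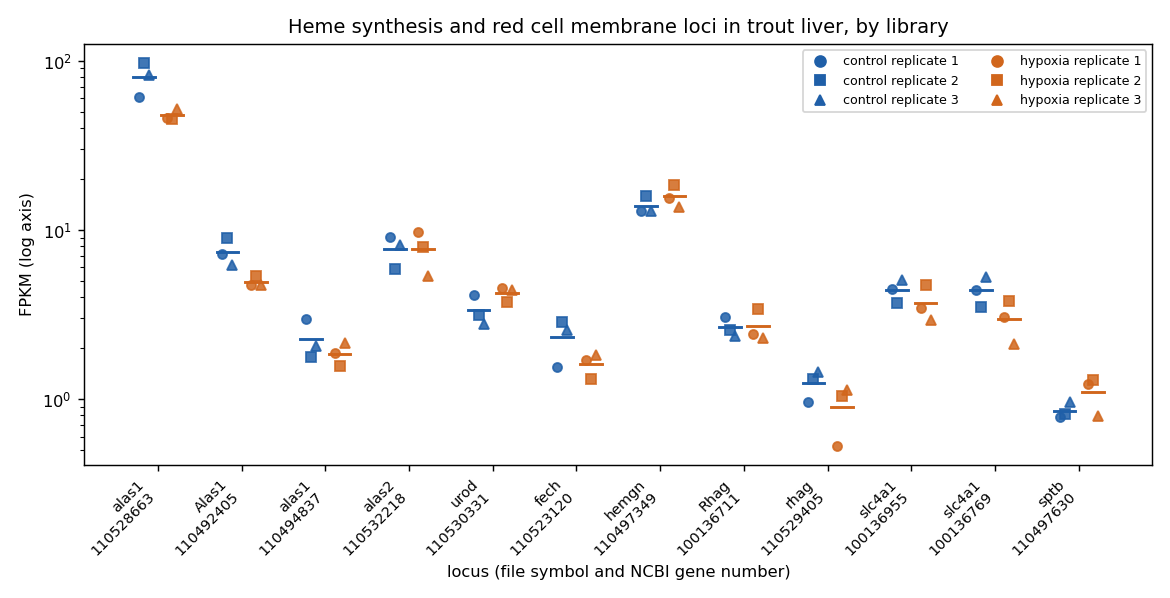
Levels of the 12 tested loci in FPKM on a log axis. Each point is 1 library (marker shape gives the replicate number, blue control, orange hypoxia), and bars are group means of 3. The highest alas1 locus sits between 60.8 and 96.7 FPKM in control and between 45.3 and 51.9 FPKM in hypoxia, and all other loci lie under 20 FPKM.

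The liver form of the first enzyme was carried mainly by 1 locus. The alas1 locus 110528663 measured 60.8, 96.7 and 82.4 FPKM in the control libraries and 45.6, 45.3 and 51.9 FPKM in the hypoxia libraries. All 3 hypoxia libraries were under all 3 controls, and the hypoxia libraries were closely grouped. The level fell by 0.78 on the log2 scale (SE 0.18, 95% interval -1.17 to -0.39, edgeR adjusted p = 0.0280). The call depended on the libraries in the fit: it was kept without control replicate 1 (adjusted p = 0.00197) and lost without control replicate 2 (0.107), control replicate 3 (0.0796), hypoxia replicate 1 (0.114), hypoxia replicate 2 (0.0920) or hypoxia replicate 3 (0.0733), with a log2 change between -0.96 and -0.60 in these 6 fits. It was also lost with limma on log2(FPKM + 0.5) and log2(FPKM + 0.1) (adjusted p = 0.0517 and 0.0538). In bulk tissue, fewer cells of a type and less RNA per cell cannot be told apart.

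The second copy, Alas1 110492405, measured 7.17, 8.93 and 6.24 FPKM in control and 4.75, 5.34 and 4.71 FPKM in hypoxia. Its groups did not overlap either, with hypoxia lower, but its change of -0.57 (SE 0.16) gave an edgeR adjusted p of 0.0567 and was not called. It passed the threshold in DESeq2 (adjusted p = 0.0429), without the filter on low genes (0.0419) and without control replicate 1 (0.0421). These were 3 of its 13 alternatives. The others did not pass, with adjusted p-values of up to 0.209 in edgeR without control replicate 2. The third copy, alas1 110494837, lay at 2.99, 1.77 and 2.05 FPKM in control and at 1.86, 1.56 and 2.15 FPKM in hypoxia, and its groups overlapped (log2 change -0.31, SE 0.21, edgeR adjusted p = 0.422). The fourth, 118940167, had 0 counts in every library, which allows up to 3 counts in a library. In assembly USDA_OmykA_1.1 it is the direct neighbour of the third copy, and a gene for dual specificity protein phosphatase 7 lies beside it and beside 110492405. The sequences of the copies were not compared, and whether reads were split between them was not tested.

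Summed over the 3 tested copies, alas1 went from 89.7 ± 18.3 FPKM (SD, n = 3) to 54.4 ± 3.79 FPKM (n = 3), with no overlap. The highest locus held 85.7% to 90.9% of that sum in the 6 libraries, so the sum moved with it.

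The red cell form did not show that difference. The alas2 locus 110532218 measured 9.06, 5.90 and 8.18 FPKM in control and 9.68, 7.97 and 5.35 FPKM in hypoxia. The groups overlapped over nearly their whole range, with a log2 change of -0.03 (SE 0.22, 95% interval -0.50 to 0.45, edgeR adjusted p = 0.960), whose sign changed with single libraries left out (-0.20 to 0.18). The ratio of summed alas1 to alas2 was 7.83, 18.2 and 11.1 in control and 5.40, 6.55 and 11 in hypoxia. It was lowest in 2 hypoxia libraries, but the third lay inside the control range.

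Of the later enzymes, urod 110530331 measured 4.14, 3.16 and 2.78 FPKM in control and 4.54, 3.77 and 4.43 FPKM in hypoxia. Only control replicate 1 reached into the hypoxia range, and the log2 change of 0.32 (SE 0.16) did not pass the test (edgeR adjusted p = 0.258). Its second copy, 110508716, was under the minimum for testing, with 0.269 to 0.501 FPKM over the 6 libraries and overlapping groups. Both copies lie between a zswim5 gene and a Lyn kinase gene in the same assembly.

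The last enzyme, fech 110523120, measured 1.56, 2.86 and 2.55 FPKM in control and 1.71, 1.32 and 1.82 FPKM in hypoxia. Control replicates 2 and 3 were above all hypoxia libraries, and control replicate 1 lay within them. Its log2 change was -0.56 (SE 0.24, 95% interval -1.09 to -0.04), with an edgeR adjusted p of 0.179 over all genes. Without control replicate 1 the change was -0.80 with an edgeR adjusted p of 0.0182, the only 1 of 13 alternatives in which fech was called. The other fits without a single library gave edgeR adjusted p-values of 0.278 to 0.452.

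**Figure D2:**
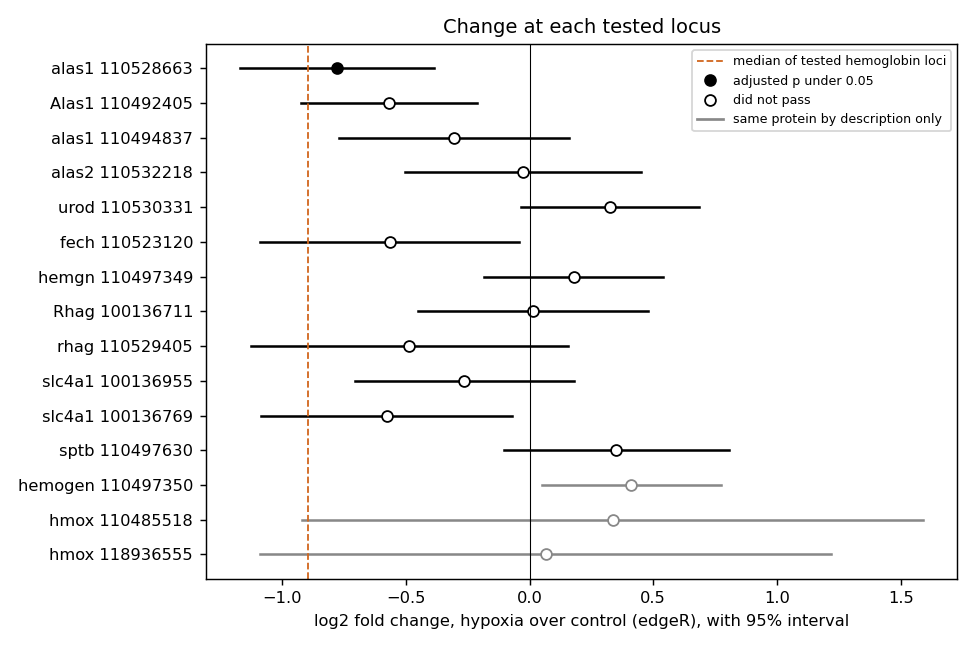
Log2 fold change of hypoxia over control from edgeR with its 95% interval for the 12 tested members (black) and for 3 loci of the same proteins matched by description only (grey). The filled point passed an adjusted p of 0.05, and the dashed line marks the median of the tested hemoglobin loci, -0.90. Only the top alas1 locus is filled.

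The other genes of the pathway came from a list of 12 symbols, such as the remaining enzymes, the mitochondrial glycine carrier slc25a38 and the iron carrier slc25a37. Of its 25 tested loci 2 were called higher and 0 lower, beside 3.83% and 3.39% of all tested genes, with a median log2 change of 0.11. The called enzyme was alad 110523566, aminolevulinate dehydratase, which joins the product of the first step into a pyrrole. It measured 2.93, 2.67 and 1.41 FPKM in control and 4.37, 5.25 and 4.94 FPKM in hypoxia. Every hypoxia library was above every control, and the level rose by 1.07 (SE 0.23, edgeR adjusted p = 0.0214). The call was lost without hypoxia replicate 1, 2 or 3 (adjusted p = 0.0587, 0.0768 and 0.0668) and with limma on log2(FPKM + 0.1) (0.0501), and kept without any 1 control library.

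The second alad copy, ALAD 110509774, had a change of 0.17 (SE 0.17, edgeR adjusted p = 0.579). The other called locus carries the symbol TMEM14C (110499388), which in mammals names a porphyrinogen carrier, but its description in the file is transmembrane protein 14A. It rose by 0.97 (SE 0.25, edgeR adjusted p = 0.0391), a call kept only without control replicate 1 (adjusted p = 0.0205) among the fits without 1 library (up to 0.119). The more abundant tmem14c 110535246 (16.9 FPKM) and tmem14ca 110489756 (14.9 FPKM) were higher without overlap. Their changes of 0.51 (edgeR adjusted p = 0.181) and 0.43 (0.187) were not called. The TMEM14C loci 110502709 and 110530888 had changes of -0.29 (0.409) and -0.12 (0.846). The glycine carrier slc25a38b 110486514, which brings the substrate of the first step into mitochondria, measured 11, 9.39 and 9.38 FPKM in control and 17, 11.5 and 16.6 FPKM in hypoxia. These groups did not overlap, and the change of 0.55 (SE 0.17) had an edgeR adjusted p of 0.0670. The less abundant slc25a38b loci 110538473 (3.77 FPKM) and 110485796 (0.713 FPKM) had changes of 0.20 (0.682) and 0.04 (0.928), with overlap. Clpx 110521200, a chaperone that in yeast and mammals acts on aminolevulinate synthase, had a change of -0.38 (SE 0.13, edgeR adjusted p = 0.112).

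Side by side along the pathway, the first step had 1 of 3 tested alas1 loci called lower, and alas2 was not called (-0.03). At the next step 1 of 2 alad loci was called higher, the less abundant copy (3.59 against 4.15 FPKM). Over all tested genes 3.39% were called lower and 3.83% higher. Of the 6 fits without 1 library, the alas1 call was kept in 1 and the alad call in 3. The test was not passed at hmbs (0.43 and 0.11), uros (-0.28), urod (0.32), cpox (0.38 and 0.73), ppox (0.09 and 0.13) and fech (-0.56), where the values in brackets are log2 changes of the tested loci.

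**Figure D3:**
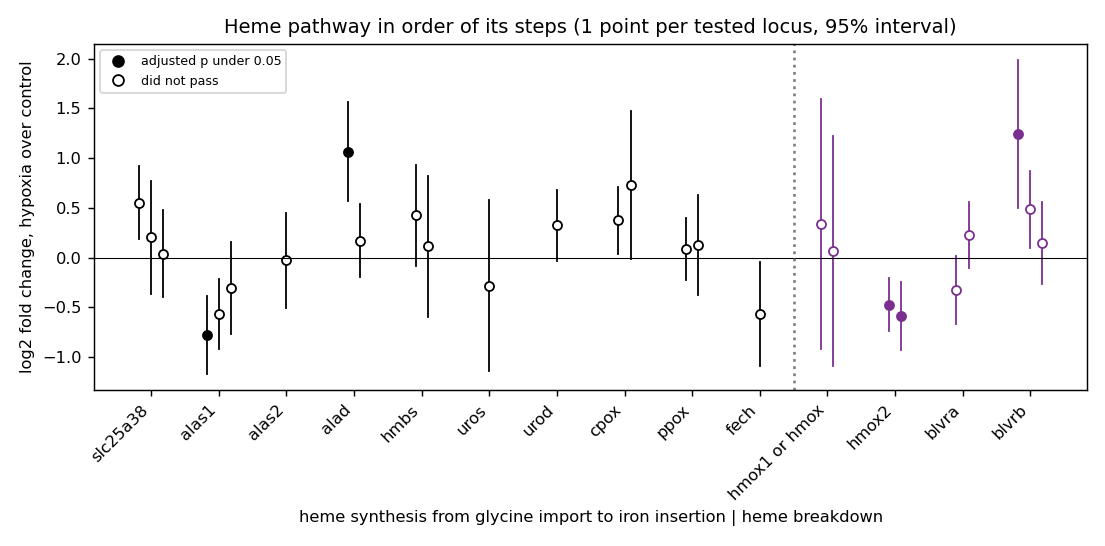
Log2 fold change of hypoxia over control with 95% intervals for each tested locus, ordered from glycine import to iron insertion (black) and then for heme breakdown (purple). Filled points passed an adjusted p of 0.05. The filled points are the lower alas1 locus (-0.78), the higher alad locus (1.07), 2 lower hmox2 loci and a higher BLVRB locus (1.25).

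Among genes of the red cell itself, hemgn 110497349 had the highest level of the members other than alas1. It measured 12.9, 15.8 and 12.9 FPKM in control and 15.5, 18.4 and 13.7 FPKM in hypoxia. The ranges overlapped, and the log2 change was 0.18 (SE 0.16, edgeR adjusted p = 0.558). A second locus described as hemogen, 110497350, which has no symbol in the file and so is no member, measured 7.89, 6.69 and 7.55 FPKM in control and 11, 10.9 and 7.98 FPKM in hypoxia. All its hypoxia libraries were above its controls, although the change of 0.41 did not pass the test (edgeR adjusted p = 0.159).

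Neither of the 2 rhag loci was called. Rhag 100136711 measured 3.06, 2.54 and 2.36 FPKM in control and 2.42, 3.39 and 2.29 FPKM in hypoxia, with overlapping groups and a log2 change of 0.02 (SE 0.21, edgeR adjusted p = 0.978). The locus rhag 110529405 measured 0.964, 1.32 and 1.44 FPKM in control and 0.530, 1.05 and 1.13 FPKM in hypoxia. Its lowest library was hypoxia replicate 1, and its change of -0.49 (SE 0.29) had an edgeR adjusted p of 0.347. The difference between the 2 loci was not tested.

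The 2 expressed band 3 loci had nearly the same level in control, 4.41 ± 0.699 FPKM (SD, n = 3) at slc4a1 100136955 and 4.41 ± 0.895 FPKM (n = 3) at slc4a1 100136769. In hypoxia the first measured 3.47, 4.71 and 2.93 FPKM and the second 3.05, 3.81 and 2.12 FPKM, against 4.45, 3.70 and 5.09 FPKM and 4.44, 3.51 and 5.30 FPKM in control. At both loci hypoxia replicate 3 was the lowest library and control replicate 3 the highest, and the groups overlapped. The changes were -0.26 (SE 0.20, edgeR adjusted p = 0.467) and -0.58 (SE 0.23, 95% interval -1.08 to -0.07, edgeR adjusted p = 0.157). The third copy, slc4a1b 110491740, had 0 counts in every library, with the same limit of 3 counts. It lies beside a gene for nucleolar transcription factor 1, as 100136769 does.

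The beta-spectrin locus sptb 110497630 measured 0.788, 0.818 and 0.960 FPKM in control and 1.23, 1.30 and 0.790 FPKM in hypoxia. Hypoxia replicates 1 and 2 were above all controls, hypoxia replicate 3 was within them, and the log2 change of 0.35 (SE 0.21) had an edgeR adjusted p of 0.334. A locus with the symbol Sptbn1 that is described as erythrocytic beta-spectrin, 110505825, had 2 counts in all, both in control replicate 3.

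These 7 loci, alas2 with hemgn, both rhag, both slc4a1 and sptb, had a median log2 change of -0.03, and 0 of 7 were called in either direction by edgeR. Over all tested genes 3.39% were called lower and 3.83% higher, so the absence of calls does not set these loci apart. Hypoxia replicate 3 was the lowest of the 6 libraries at 4 of the 7 and the lowest of its group at 6 of the 7. How often this held over all tested genes was not computed, so it is not shown to be particular to these loci. Along the 6 libraries their profiles were not alike: Pearson's r of log2(FPKM + 0.5) with alas2 was 0.57 and 0.55 for the slc4a1 loci, 0.55 for sptb, 0.36 for Rhag, -0.02 for hemgn and -0.57 for the second rhag. The genes most like alas2 among 15183 with a mean of at least 1 FPKM were Tspan33 (r = 0.993), lhfpl2a (0.993), il6r (0.980), stxbp3 (0.976) and rcan2 (0.973). These are descriptions over 6 points that share libraries and scaling, and 72 genes had an r above 0.9.

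Hemoglobin, measured in the same libraries, showed a larger change. The sum over its 20 tested loci was 1516, 1227 and 1706 FPKM in control and 872, 809 and 628 FPKM in hypoxia. Every hypoxia library was lower, by 1.93-fold on average (exact two-sided permutation test, p = 0.1, the smallest that 3 against 3 can give). By edgeR 16 of the 20 loci were called lower and 0 higher, with a median log2 change of -0.90. Over all tested genes 3.39% were called lower and 3.83% higher. The count of lower hemoglobin loci was 8 to 16 with a single library left out and 12 with either limma pseudocount. The 95% intervals of 5 of the 7 red cell loci lay above that median. The share of all tested genes for which this held was not computed, so the count does not set these loci apart. The median is also no bound on hemoglobin, whose least negative locus had a log2 change of 0.59.

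Each locus was then set against hemoglobin within its library, a ratio chosen after the values were seen. As a percent of summed hemoglobin FPKM, alas2 was 0.598, 0.481 and 0.479 in control and 1.11, 0.985 and 0.852 in hypoxia. The hypoxia libraries were higher without overlap, with a ratio 1.89-fold higher (exact two-sided permutation p = 0.1). The same was true of 6 of the 7 red cell loci, with folds from 1.29 at slc4a1 100136769 to 2.45 at sptb, and the groups overlapped at rhag 110529405 (1.35-fold). Over all 12 tested members it was true of 7. It also held for 78.0% of all tested genes, so a rise over hemoglobin was common to most of the transcriptome and does not set these loci apart.

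**Figure D4:**
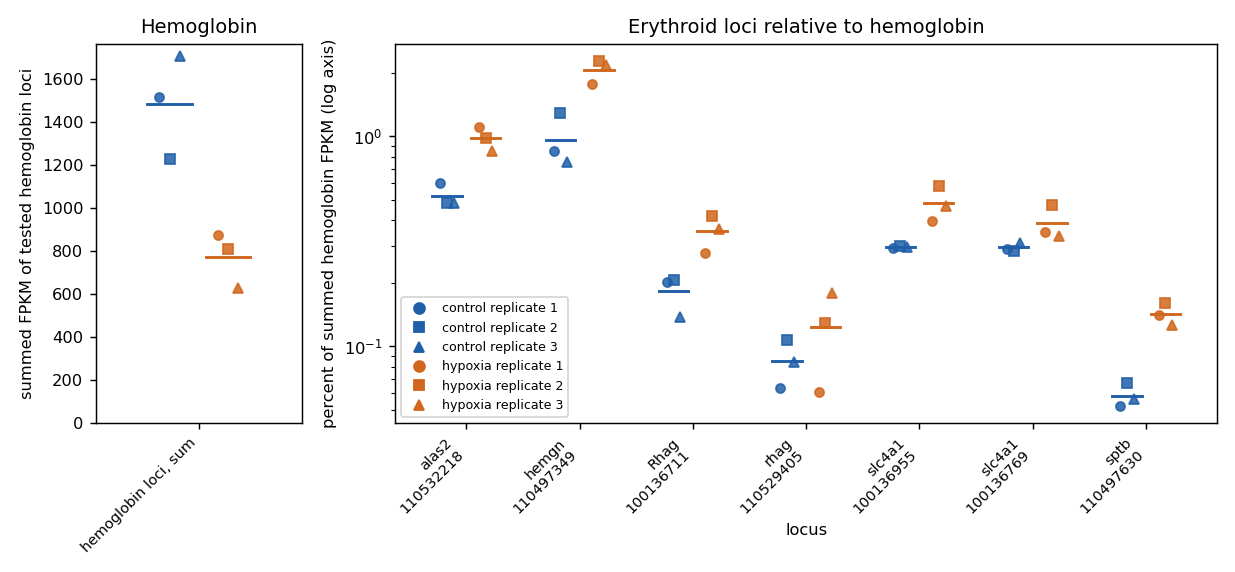
Left, summed FPKM of the 20 tested hemoglobin loci by library, on an axis from 0. Right, each of 7 red cell loci as a percent of that sum, on a log axis. Points are libraries (shape gives the replicate number) and bars are group means. The hemoglobin sum is lower in all 3 hypoxia libraries (628 to 872 against 1227 to 1706 FPKM), and 6 of 7 ratios are higher without overlap.

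Other genes of the red cell membrane and of red cell formation were read beside the shares over all tested genes, 3.39% called lower and 3.83% higher. In the list of other membrane genes 2 of 20 tested loci were called lower and 0 higher, with a median of -0.004. Both of the lower loci are relatives found by the first words of their description, Aqp12 (-1.50, SE 0.33, edgeR adjusted p = 0.0234) and epb41l3a (-0.54, SE 0.14, edgeR adjusted p = 0.0466), not the red cell aquaporin or protein 4.1. Erythroid ankyrin ank1b 110523541, which ties band 3 to spectrin, had a change of -0.65 (SE 0.29, edgeR adjusted p = 0.201). The other tested ankyrin-1 loci, Ank1 110525713 and ANK1 110536085, had changes of 0.33 (0.399) and 0.18 (0.478), the latter higher without overlap. The locus epb41l4b had a change of -0.49 (0.174).

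Among regulators and red cell enzymes 1 of 9 tested loci was called lower and 0 higher, with a median of -0.10. That locus was zfpm1 110494451, which encodes the GATA cofactor FOG1, with a fall of 0.71 (SE 0.19, edgeR adjusted p = 0.0482). Its second copy 110519941 had a change of -0.58 (0.0603). The transferrin receptors TFRC 100653457 and tfr1b 110535367, which take up iron, had changes of 0.40 (edgeR adjusted p = 0.141) and 0.54 (0.157). Their mean levels were 4.04 and 1.87 FPKM. The most abundant receptor locus, tfr1a 110509090 at 50.4 FPKM, had overlapping groups and a change of 0.16 (0.640). The median thus covers loci with changes of both signs. An unadjusted p under 0.05 in edgeR was found at 4 of the 9, beside 4580 of 19365 over all tested genes. No row of gata1, gfi1b, klf1, klf17 or nfe2 reached the minimum for testing. For the relatives of the membrane genes used outside red cells 0 of 14 loci were called by edgeR, among them SPTBN1 (-0.08, adjusted p = 0.763) and SLC4A2 (0.53, 0.129).

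The member hmox1a 110486536 was near the floor, with 0.470, 0.585 and 0.326 FPKM in control and 0.426, 0.416 and 0.159 FPKM in hypoxia, and was not tested. In the reference assembly it neighbours mcm5. Most heme oxygenase RNA of this kind came from 2 loci with the symbol hmox, which the rule does not take in. The locus hmox 110485518 measured 25.6, 5.20 and 3.53 FPKM in control and 11.5, 21.1 and 9.34 FPKM in hypoxia, and hmox 118936555 measured 19.6, 3.01 and 2.94 FPKM in control and 7.63, 11.1 and 7.62 FPKM in hypoxia. At both loci control replicate 1 was far above the other controls, 5.50-fold above the next in their sum, and the hypoxia libraries lay between.

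Neither locus passed the test, with log2 changes of 0.34 (edgeR adjusted p = 0.775) and 0.07 (0.963). Without control replicate 1 the changes were 1.65 (edgeR adjusted p = 0.0147) and 1.51 (0.00296). Both loci lie between an HMG domain-containing protein 4-like gene and an RNF11 gene. Their sequences were not compared, and whether reads were split between them was not tested. On the first principal component of all genes, which held 45.6% of the variance, control replicate 1 stood at -7.34, the other controls at -32.8 and -31.5, and the hypoxia libraries at 18.4 to 27.1. The labels give no batch, and what sets this library apart was not tested.

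In heme breakdown and scavenging 3 of 16 tested loci were called lower and 1 higher, with a median of -0.33. Over all tested genes the shares were 3.39% lower and 3.83% higher. The hemopexin and haptoglobin loci, among them the most abundant of the list, were not called. Hemopexin hpxa had a change of 0.51 (edgeR adjusted p = 0.0731), from a mean of 3879 to 5592 FPKM, higher without overlap. At hpxb the change was -0.33 (0.196), lower without overlap. The haptoglobin loci had changes of -0.41 (118936659), -0.25 (110506425), -0.54 (118964916) and -2.09 (100135921), with overlap. The constitutive heme oxygenases HMOX2 110512532 and hmox2b 110487001 fell by 0.47 (SE 0.12, edgeR adjusted p = 0.0427) and by 0.59 (SE 0.15, 0.0454). HMOX2 measured 13.8, 12.2 and 13.7 FPKM in control and 9.95, 9.64 and 9.54 FPKM in hypoxia, without overlap. The hmox2b groups overlapped in FPKM but not in the deposited counts (627, 924 and 751 in control, 429, 458 and 522 in hypoxia). Bach1 110533253, a heme-sensing repressor of heme oxygenase in mammals, fell by 0.95 (SE 0.23, edgeR adjusted p = 0.0349), from 2.004, 1.76 and 1.43 FPKM to 0.861, 0.659 and 1.16 FPKM. The other tested bach1 loci were not called. At bach1b 110510280 the change was -0.79 (edgeR adjusted p = 0.0505), without overlap. At Bach1 110508103, the most abundant at 2.30 FPKM, it was -0.27 (0.342), with overlap. BLVRB 110525440, described as flavin reductase and also known as biliverdin reductase B, rose by 1.25 (SE 0.34, edgeR adjusted p = 0.0493), from 1.68, 0.714 and 1.37 FPKM to 2.90, 2.46 and 3.81 FPKM. It was the lowest of 3 BLVRB loci: BLVRB 110503591, at a mean of 38.2 FPKM, had a change of 0.14 (edgeR adjusted p = 0.694) and BLVRB 110507468, at 6.65 FPKM, one of 0.49 (0.119), and neither was called.

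The calls of zfpm1, Aqp12, epb41l3a, HMOX2, hmox2b and BLVRB were each kept without control replicate 1 and lost without any 1 of the other 5 libraries, with adjusted p-values of up to 0.146, 0.0914, 0.176, 0.137, 0.171 and 0.162 in that order. The call of Bach1 was kept only without hypoxia replicate 3 (0.0465) and reached 0.121 without others. The direction of each of these 7 was the same in all 6 fits. With limma on log2(FPKM + 0.5) the calls of zfpm1 (adjusted p = 0.0765), epb41l3a (0.0828), HMOX2 (0.0749), hmox2b (0.147) and Bach1 (0.0575) were lost too, so that 0 of the 16 loci of heme breakdown and scavenging were called lower with either limma pseudocount, against 3 by edgeR and 3 by DESeq2.

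Red cell precursors of vertebrates make miR-144 and miR-451 from 1 shared transcript, and miR-451 is cut by the Argonaute protein in place of Dicer. The small RNA table held 5 rows of these names. Their sequences are shown 5′ to 3′ as deposited, in the DNA alphabet, because they hold the targeting seed. Capitals mark bases 2 to 8 of each row, which are that seed if the row starts at the mature 5′ end.
miR-144-x: gGATATCAtcatatactgtaagt
miR-144-y: cTACAGTAtagatgatgtact
miR-451-x: tAACCGTTaccattactgagttt
miR-451-y: tTTAGCAAtggtaagggttct
miR-451-z: cAAACCGTtaccattactgagtt
No 2 of the 5 have the same marked stretch as deposited, and whether each row starts at the mature 5′ end was not tested. The rows miR-451-x and miR-451-z share a run of 21 bases, which starts at base 2 of the first and base 3 of the second. At this offset the 2 rows cannot both start at the same mature 5′ end, so their marked stretches cannot both be its seed.

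Levels of these rows are TPM, counts scaled to the small RNA total. The row miR-144-y measured 94.9, 159 and 71.7 TPM in control and 252, 255 and 201 TPM in hypoxia. Every hypoxia library was above every control. Its log2 change was 1.09 (SE 0.25, 95% interval 0.52 to 1.66), with an unadjusted p of 0.00209 and an adjusted p of 0.214 in edgeR over 510 rows, where 0.196% of rows were called, and an adjusted p of 0.0273 in DESeq2, where 1.18% of 508 rows were called. Over all alternatives its adjusted p lay between 0.0273 and 0.830.

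The row miR-451-x measured 230, 142 and 137 TPM in control and 318, 431 and 191 TPM in hypoxia, so the groups overlapped through control replicate 1 and hypoxia replicate 3 (log2 change 0.80, SE 0.34, edgeR adjusted p = 0.511). The row miR-451-y, at 14.3, 7.02 and 11.3 TPM in control and 24.1, 24.7 and 15.6 TPM in hypoxia, was higher without overlap, with a change of 0.87 (SE 0.39, edgeR adjusted p = 0.548). Groups higher without overlap were found in 2 of the 4 tested rows and in 10.4% of all 510. The row miR-144-x had a change of -1.03 (SE 0.65, edgeR adjusted p = 0.584), with control replicate 3 at 48.1 TPM against 10.1 and 12.2 TPM in the other controls and 10.02 to 17.6 TPM in hypoxia. The row miR-451-z stayed under the minimum of 1 TPM.

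**Figure D5:**
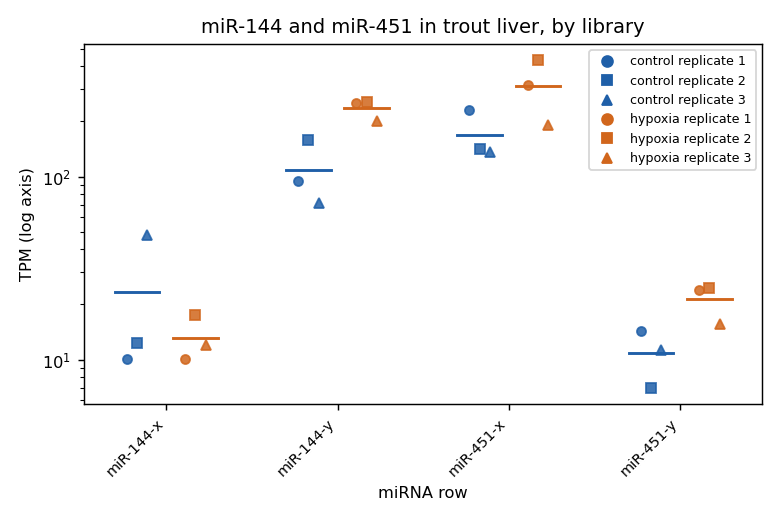
Levels of the 4 tested miR-144 and miR-451 rows in TPM on a log axis, by library (shape gives the replicate number, blue control, orange hypoxia), with bars for group means of 3. For miR-144-y the 3 hypoxia libraries (201 to 255 TPM) are above the 3 controls (71.7 to 159 TPM), and for miR-144-x control replicate 3 stands apart at 48.1 TPM.

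Markers of other cells of the liver were read beside these results. By edgeR 0 of 17 leukocyte and 0 of 10 thrombocyte loci were called, beside 3.39% lower and 3.83% higher over all tested genes. Of the macrophage loci 1 of 7 was lower (Marco, -1.35, adjusted p = 0.00793), of the endothelium loci 1 of 11 was lower (CDH5 110506352, -0.53, 0.0441, up to 0.166 with 1 library left out), and of the hepatocyte loci 4 of 20 were lower, 3 of them apolipoprotein A-I loci, and 1 was higher (Fgg). Median log2 changes were -0.02 for leukocyte, -0.18 for thrombocyte, -0.12 for macrophage, -0.38 for endothelium and -0.15 for hepatocyte loci. In edgeR 6 of the 11 endothelium loci had an unadjusted p under 0.05, beside 4580 of 19365 over all tested genes. Summed levels were 186 to 239 FPKM in control and 190 to 220 FPKM in hypoxia for leukocytes, 143 to 182 and 191 to 212 FPKM for thrombocytes, 41.3 to 51.3 and 38.7 to 45.8 FPKM for macrophages, and 26.3 to 29.0 and 22.4 to 23.9 FPKM for endothelium. The defining thrombocyte genes gp9 and itga2b and the endothelial genes stab2 and lyve1 had no row that reached the minimum for testing. The thrombocyte sum rests mainly on the Thbs1 row, which the file describes as properdin (133 to 170 FPKM in control and 181 to 201 FPKM in hypoxia). Likewise, the leukocyte sum rests mainly on Cd74 100136156, described as an invariant chain (137 to 176 FPKM in control and 135 to 165 FPKM in hypoxia). The hepatocyte sum was 57105 to 60977 FPKM in control and 51377 to 53552 FPKM in hypoxia, with rows of tf, fibrinogen and apoa1 among its loci and no row of alb or ahsg matched. The part of cell makeup in the values above was not tested. RNA-seq libraries held 19060468 to 23152833 counts and small RNA libraries 8822671 to 13614506.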

How the data were processed

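Liver RNA was extracted with Trizol and sequenced as RNA-seq and small RNA libraries, per the labels. The authors deposited raw counts and FPKM per gene, and raw counts and TPM per miRNA, per the file headers, with their own log2 fold change, p-value and FDR. The submitters' processing notes list TopHat2 2.1.1 and Bowtie2 2.2.8 without saying what each did. Quantifier, build and annotation were not given in the sources used here, so no coordinates are given, and USDA_OmykA_1.1 served for names and gene order only (41896 gene numbers matched). No promoter or protein sequences were used here.

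The members, lists and tests were chosen with earlier results of these data known. Groups and replicate numbers came from the labels. Tested were genes whose mean FPKM reached 0.5 and miRNA rows whose mean TPM reached 1, in R 4.3.3 with edgeR 4.0.16 (quasi-likelihood, TMM, group only, two-sided, Benjamini-Hochberg over all rows). The SE is the unshrunken log2 change over the square root of F, and intervals use edgeR's degrees of freedom. The alternatives were DESeq2 1.42.0, its size factors, limma 3.58.1 on log2(FPKM + 0.5), log2(FPKM + 0.1) and log2(TPM + 1), no filter, library sizes without hemoglobin, a replicate block and each library left out. Leaving out libraries for the ratio to hemoglobin and for the correlations with alas2, and counts in that ratio, were chosen after seeing the data. The count tests were checked on simulated data with gene-specific dispersions, where false calls ran above the nominal share. No pair of replicates was alike within counting noise (chi-square per degree of freedom from 9.78 to 23.0 for RNA-seq pairs, from 82.1 to 561 for small RNA pairs).

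Named genes were all members, loci of the same proteins by description, up to 4 tested loci of each list with the smallest p (the 2 highest where none passed), the 5 most like alas2 and all miR-144 and miR-451 rows. The ALAD copy, 2 further BLVRB loci, tfr1a and the further ank1, tmem14c, bach1 and slc25a38b loci were added after their values were seen. So were the hemopexin and haptoglobin loci and the step values along the pathway. Lists matched by symbol or by the first words of a description. Limits for 0 counts cover counting error only.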

Additional observations from a re-analysis of the deposited data

How the results depend on the processing

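Over all genes the count of calls was 1398 and fell to 826 and 771 with limma on log2(FPKM + 0.5) and log2(FPKM + 0.1), and ranged from 361 to 2186 without 1 library. Lower members numbered 1, against 2 with DESeq2, 2 with no filter, 0 with either limma fit and 0 to 3 without 1 library (3 without control replicate 1: alas1 110528663, Alas1 110492405 and fech). Higher members numbered 0 in every fit. Small RNA calls numbered 1, against 6 with DESeq2, 3 with no filter, 0 with limma on log2(TPM + 1) and 0 to 0 without 1 library. The replicate block left 1 lower member, and 0 lower loci of heme breakdown in place of 3. Replicate numbers did not pair the libraries (correlations of deviations -0.055, 0.064 and -0.054). Under the block Rhag 100136711 turned to -0.0070. Without 1 library each, signs turned for alas2 (-0.20 to 0.18), Rhag (-0.22 to 0.14), hmox 110485518 (-0.13 to 1.65), hmox 118936555 (-0.34 to 1.51) and miR-144-x (-1.52 to 0.13), and the cause was not tested. Of 156 alternatives for single members, 139 kept direction and call, and all 49 for the ratio to hemoglobin kept direction. That ratio was chosen after the values were seen. It rose without overlap for 78.0% of all tested genes, because hemoglobin was lower in every hypoxia library. Its kept direction is therefore not evidence about these loci in particular. Most of the 156 were for members that were not called. The call of alas1 110528663 was kept in 6 of its 13 alternatives. With 3 libraries a group, the 95% intervals of members that were not called reached from -1.13 to 0.80 on the log2 scale.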
